A study of Mus musculus with 6 samples.

Results

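Histone genes were taken from the deposited expression table of mouse bone marrow-derived macrophages as the rows whose gene symbol begins with the stem of a histone family, both older and current names, with names containing -ps dropped. This gave 83 of 55736 rows. They comprised 64 replication-dependent genes, 12 variant or replacement genes, 6 variants known from germ cells and 1 antisense transcript, H3f3aos. The GENCODE M21 annotation types H2ac14, among the replication-dependent rows, and H3f3c, H3f4 and Macroh2a3, among the variants, as pseudogenes. A row counted as replication-dependent unless its name was listed as a variant, a germ cell variant or antisense. Neither its position nor its values entered this step.

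The cells are macrophages grown from marrow of wild-type (WT) mice, and the study asks how the chemokine CCL7 relates to macrophage polarization and rheumatoid arthritis. RNA sequencing covered 3 libraries of cells given 200 ng/ml lipopolysaccharide (LPS), the bacterial glycolipid that activates Toll-like receptor 4, and 3 control libraries, all at 24 h. The titles of the treated samples further hold a number, 500, that no label explains. Strain, age, number of animals and any separation of cultures are absent from the labels, and the p-values below therefore describe library-to-library spread alone, possibly technical.

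Replication-dependent histones package newly copied DNA. Their genes lie in clusters and are transcribed in S phase, and their mRNAs normally end in a short hairpin bound by SLBP rather than in a poly(A) tail. Variant histones are mostly made from ordinary polyadenylated mRNAs through the whole cycle and replace the canonical proteins. H3.3 and H2A.Z are found at active genes and promoters, macroH2A in repressed chromatin and H1.0 in cells that have stopped dividing. H2A.X is phosphorylated around DNA breaks. Macrophages grown in culture proliferate, and LPS is known to arrest their division. Some replication-dependent genes also give polyadenylated transcripts in differentiated cells, and no source used here says whether these libraries were selected for poly(A). The level of a tailless mRNA may therefore be understated.

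Values are TPM (transcript abundance scaled for length and to one total per library), which keep no read depth. Saa3 and Fth1 together held 17.1% to 18.03% of TPM in LPS libraries and 1.93% to 2.12% in control libraries, and a fixed total lowers all other values when a few genes take more of it. Over 12440 tested genes the median change was −0.44 (log2(TPM + 1) scale). Removal of Saa3 and Fth1 leaves a median of −0.22 over 12564 tested genes. Scaling by the median of ratios moves the median of the 12440 genes to 0.001, and calls that turn under this scaling are given beside the result. Proliferation markers differed between the groups. The 5 of them (Cdk1, Top2a, Mki67, Ccna2 and Ccnb1) summed to 15.2 to 21.3 TPM in LPS libraries and 929 to 1019 TPM in control libraries. All 5 were lower after LPS, as deposited and after median-of-ratios scaling. Of all tested genes, 59.8% were lower as deposited and 33.6% after that scaling. The part of the difference in proliferation markers in the histone values was not tested. In bulk RNA, fewer dividing cells and less histone RNA per cell cannot be told apart. Macrophage markers summed to 34412 to 36893 TPM in LPS libraries and 26228 to 27823 TPM in control libraries, mostly from Lyz2. Of the 7, 4 were higher and 3 lower after LPS, where 16.3% of all tested genes were higher and 59.8% lower. After median-of-ratios scaling 4 were higher, 1 was lower and 2 were not called, where 33.5% of all tested genes were higher and 33.6% lower. The 8 neutrophil markers summed to 76.9 to 94.0 TPM in LPS libraries and 3.95 to 6.33 TPM in control libraries, mostly from S100a8, and Mpo, Elane and Ly6g were listed at 0 in the LPS libraries.

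The hairpin that sets replication-dependent mRNAs apart is shown first, because it divides the members independently of their levels. A 16-base stem-loop whose paired arms begin with GG and end with CC, with T before and A after the loop, was searched after the stop codon of the annotated transcripts (GENCODE M21, GRCm38). It was found in 43 of 64 replication-dependent models, in H2ax among the variants and in H1f6 among the germ cell genes, 21 to 58 bases after the stop codon (median 31). Among 21823 other protein-coding genes, 1.76% held such a sequence anywhere in their longest transcript. The 3 most frequent forms, the forms of H4c9 and H4c11 (named below for their levels) and that of H2ax were the following, with the pairing arms in capitals and the loop in lower case.
H2ac18, H2ac19, H1f2, H2bc8, H2ac24 and 19 others: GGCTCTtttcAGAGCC
H4c8 and 6 other H4 genes: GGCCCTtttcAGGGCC
H1f6, H2bc3, H2bc12, H3c3, H3c6 and H3c7: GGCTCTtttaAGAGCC
H4c9 and H4c14: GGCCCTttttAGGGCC
H4c2 and H4c11: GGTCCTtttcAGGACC
H2ax: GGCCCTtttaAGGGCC
H2B, H3, H2A and H1 genes carried arms that begin GGCTC, and H4 genes arms that begin GGCCC or GGTCC. H2ax was the one member outside the H4 family with GGCCC arms. Of the 21 replication-dependent models without a match, 13 stop within 2 bases of the stop codon, so the annotation holds no sequence in which to search.

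The 4 promoters below stand for the sets that the results contrast: both H2A.Z genes, H3f3b as a variant whose change lay close to the median of all tested genes, and H2bc8 of the cluster on chromosome 13. Each is a window of 300 bases around the start in RefSeq (GRCm38.p6), most of it upstream, on the gene's own strand. The H3f3b window lies inside the gene as annotated in GENCODE M21, which starts further upstream, at position 116027962. Capitals mark CCAAT or its reverse complement ATTGG, and the octamer ATTTGCAT or its reverse complement ATGCAAAT.
H2az1, chr3:137864237-137864536, plus strand: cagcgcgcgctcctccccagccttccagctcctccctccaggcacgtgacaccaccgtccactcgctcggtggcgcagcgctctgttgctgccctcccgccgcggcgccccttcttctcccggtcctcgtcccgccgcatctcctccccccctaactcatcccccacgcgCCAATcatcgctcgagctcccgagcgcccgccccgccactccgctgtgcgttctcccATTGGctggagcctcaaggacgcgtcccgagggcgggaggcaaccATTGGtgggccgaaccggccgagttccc
H2az2, chr11:6444394-6444693, minus strand: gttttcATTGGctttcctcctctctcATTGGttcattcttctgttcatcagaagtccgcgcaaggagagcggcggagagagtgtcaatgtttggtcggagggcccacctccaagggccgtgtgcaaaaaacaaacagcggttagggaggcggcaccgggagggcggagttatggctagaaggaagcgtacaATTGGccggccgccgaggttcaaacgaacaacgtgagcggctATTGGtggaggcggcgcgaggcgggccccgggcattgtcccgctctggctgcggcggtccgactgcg
H3f3b, chr11:116024455-116024754, minus strand: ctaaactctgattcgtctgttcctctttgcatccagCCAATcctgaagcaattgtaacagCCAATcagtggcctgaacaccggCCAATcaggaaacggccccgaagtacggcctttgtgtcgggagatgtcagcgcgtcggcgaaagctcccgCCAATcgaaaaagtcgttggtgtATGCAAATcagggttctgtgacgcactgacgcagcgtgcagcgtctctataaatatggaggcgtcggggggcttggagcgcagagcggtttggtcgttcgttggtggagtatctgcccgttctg
H2bc8, chr13:23571150-23571449, plus strand: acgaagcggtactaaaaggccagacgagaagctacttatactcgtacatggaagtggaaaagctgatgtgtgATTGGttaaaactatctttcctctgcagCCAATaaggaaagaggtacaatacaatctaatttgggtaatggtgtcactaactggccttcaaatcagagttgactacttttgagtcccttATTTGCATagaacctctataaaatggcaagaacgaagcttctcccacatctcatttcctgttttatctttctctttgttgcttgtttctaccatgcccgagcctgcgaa
The H2az1, H2az2, H3f3b and H2bc8 windows held 3, 4, 4 and 2 CCAAT motifs, and those of H3f3b and H2bc8 also 1 octamer each. The H2bc8 window overlaps that of H2ac8, chr13:23571171-23571470 on the minus strand, so that pair is read from one shared stretch. Of the 83 members, 72 were matched to a RefSeq promoter. No entry was found for H2bc24, H2ax, H2ac14, H2bc4, H4c14, H2bc21, H1f9, H3c7, H3f3aos, Macroh2a3 and H3c1.

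Across the 72 promoters, CCAAT was present on either strand in 58, against 37.4% of 32851 promoters in the RefSeq table. The octamer was present in 13 (1.74% of all promoters), the E2F-type motif TTTNGCGC in 13 (1.38%), TATAAA in 37 (13.6%) and TTTGAA, the core of the cell cycle element CHR, in 28 (17.9%). All were searched on both strands, and no motif overlapped another in the members' windows. CCAAT lay in 16 of 16 replication-dependent H2A promoters, 14 of 14 of H2B, 10 of 10 of H3 and 5 of 5 of H1, but in 3 of 12 of H4. The octamer and the E2F-type motif were found in replication-dependent promoters of H2A (5 and 7) and H2B (5 and 6). Paired genes of these families share windows, so the promoters are not independent of each other. A match is a run of letters, not a measured binding site.

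Histone transcripts as a whole took a smaller part of the LPS libraries. The 83 members summed to 1529 to 1567 TPM in LPS libraries and 2793 to 3106 TPM in control libraries. Of 8 tested variants, 8 were lower after LPS (limma, adjusted p under 0.05). Of all tested genes 76.1% were called in either direction and 59.8% were lower. Of 13 tested replication-dependent genes, 9 were lower and 4 did not pass. The median change was −1.69 over the tested variants, −0.84 over the tested replication-dependent genes and −0.44 over all tested genes, on the log2(TPM + 1) scale. A lower value by 1 or more on that scale was called for 5 of the 8 variants and 6 of the 13 replication-dependent genes, against 21.6% of all tested genes. After median-of-ratios scaling, 5 variants were lower and 1 was higher, and 6 replication-dependent genes were lower and 2 were higher, where 67.1% of all tested genes were called, 33.6% lower and 33.5% higher. Tested genes had at least 1 TPM in at least 3 of 6 libraries. Of the 21, 4 (H1f10, H4c12, H2ac10 and H3c15) reached that level only in control libraries, so for these a lower value after LPS follows from the filter. H2bc8, H2ac24 and H2ac8 reached it in all 3 control libraries but only 1 LPS library each. They too passed through the control libraries, so the filter favours a lower value after LPS for them as well. All of these genes are kept in the counts and medians above. Among replication-dependent genes outside them, H1f2 (−2.18), H2bc21 (−1.26) and H4c9 (−0.84) were called lower. H2ac19 (−0.07), H2bc4 (−0.01), H2ac18 (0.001) and H4c8 (0.12) were not called.

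**Figure D1:**
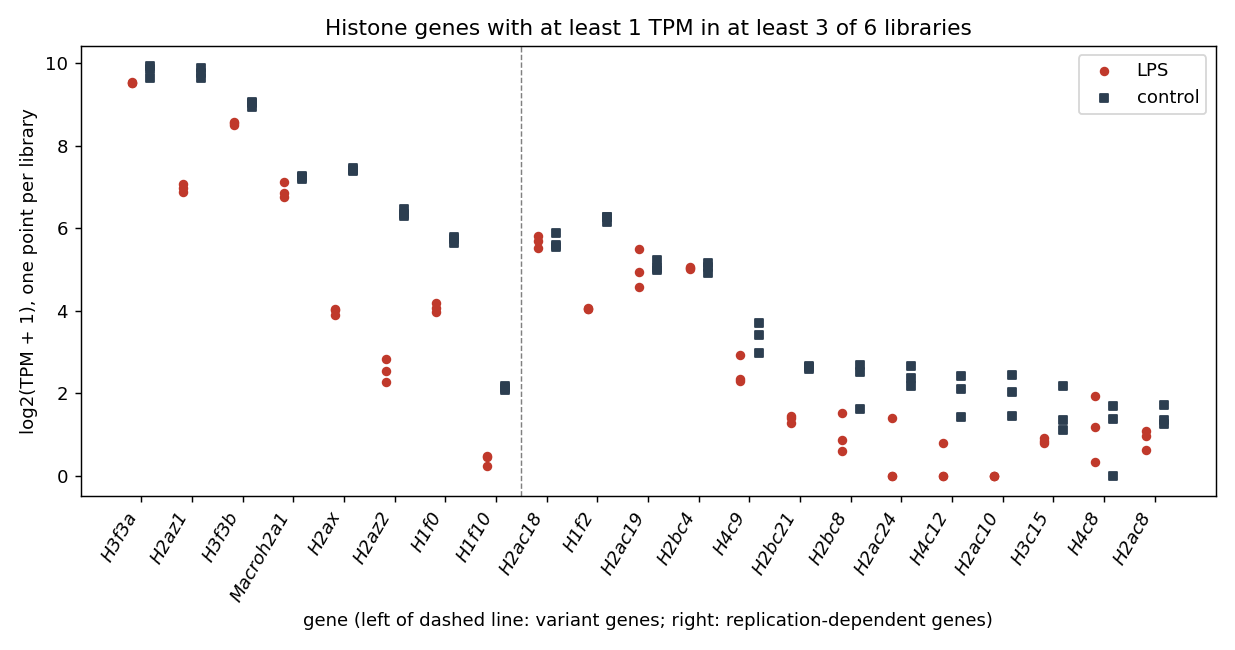
Level of the 21 tested histone genes in each library, as log2(TPM + 1), LPS libraries as circles left of control libraries as squares, with variants left of the dashed line. Points of H2az1, H2ax, H2az2, H1f0 and H1f2 in LPS libraries lie far below their control points, while those of H2ac18, H2ac19 and H2bc4 overlap.

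Among the variants, H2az1, H2az2 and H2ax of the H2A family showed the largest changes on the log2(TPM + 1) scale, and Macroh2a1 of the same family a small one. H2az1 encodes H2A.Z.1, the main form of the variant that flanks transcription start sites (ENSMUSG00000037894; GRCm38 chr3:137864487-137866922, plus strand, 5 exons). It had 125, 133 and 117 TPM in the LPS libraries and 876, 798 and 946 TPM in the control libraries. The groups stood far apart, and libraries within a group lay close together. The LPS mean of 125 ± 7.79 TPM was 6.98-fold lower than the control mean of 874 ± 73.9 TPM (SD, n = 3 each), a change of −2.79 (SE 0.075) on the log2(TPM + 1) scale (limma adjusted p = 8.65e-08). Of its 50-base stretches, 69.6% also occur in transcripts of other genes, and the labels do not say how the authors divided shared reads.

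H2az2, which encodes the closely related H2A.Z.2, had 4.84, 6.17 and 3.82 TPM in LPS libraries and 80.3, 77.8 and 87.6 TPM in control libraries. The difference was 16.6-fold (log2 change −3.82, SE 0.141, limma adjusted p = 3.88e-07), and none of its 50-base stretches is shared. The 2 H2A.Z genes did not fall by the same factor. The ratio of H2az1 to H2az2, which no library scaling can alter, was 25.8, 21.6 and 30.7 in LPS libraries and 10.9, 10.3 and 10.8 in control libraries. Every LPS library therefore stood above every control library in this ratio.

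H2ax encodes H2A.X, the variant phosphorylated around DNA breaks (GRCm38 chr9:44334694-44336077, plus strand, 1 exon). Its gene gives both a stem-loop and a polyadenylated mRNA, and its annotated model continues 822 bases past the hairpin shown above. It had 15.6, 15.2 and 13.97 TPM in LPS libraries and 171, 174 and 165 TPM in control libraries, which is 11.4-fold lower after LPS (log2 change −3.43, SE 0.057, limma adjusted p = 1.63e-08). Libraries within each group differed by far less than the groups did.

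Macroh2a1 encodes macroH2A1, which carries a large non-histone macro domain (GRCm38 chr13:56073619-56136361, minus strand, 9 exons in the model used). It had 107, 115 and 138 TPM in LPS libraries and 153, 146 and 151 TPM in control libraries. LPS library 3 came near the control range without entering it. The means were 120 ± 16.3 TPM in LPS libraries and 149.8 ± 3.62 TPM in control libraries (SD, n = 3 each), and the change of −0.32 (SE 0.092, limma adjusted p = 0.0143) turned to 0.17 and was not called (adjusted p = 0.118) once scaled by the median of ratios. Its splice forms are not separated in a table per gene.

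Both genes of H3.3, the H3 variant laid down outside replication by HIRA and by DAXX with ATRX, were abundant in both groups. H3f3a (GRCm38 chr1:180800832-180813943, minus strand) had 752, 737 and 740 TPM in LPS libraries and 972, 803 and 926 TPM in control libraries. H3f3b (GRCm38 chr11:116021912-116027962, minus strand) had 363, 383 and 373 TPM in LPS libraries and 527, 490 and 531 TPM in control libraries. Neither gene's groups overlapped, as for 61.4% of all tested genes with LPS below control. The change of H3f3a was −0.27 (SE 0.072, limma adjusted p = 0.0101), but after median-of-ratios scaling it was 0.22 and called higher (adjusted p = 0.0474). That of H3f3b was −0.47 (SE 0.048, limma adjusted p = 7.81e-05), and after the same scaling 0.03 with no call (adjusted p = 0.657). The ratio of H3f3a to H3f3b averaged 1.99 ± 0.0754 in LPS libraries and 1.74 ± 0.103 in control libraries (SD, n = 3 each), and its groups did not overlap. They encode the same protein, and 30.3% of the 50-base stretches of H3f3a and 8.40% of those of H3f3b occur in other genes' transcripts.

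Of the linker histones, which bind the DNA between nucleosomes, H1f0 encodes H1.0, the replacement form of cells that leave the cycle. It had 15.8, 17.3 and 14.8 TPM in LPS libraries and 49.2, 54.3 and 52.4 TPM in control libraries, a 3.25-fold lower level (log2 change −1.64, SE 0.074, limma adjusted p = 1.06e-06). H1f10, which encodes the divergent linker H1.10, had 0.17, 0.39 and 0.36 TPM in LPS libraries and 3.50, 3.20 and 3.40 TPM in control libraries (log2 change −1.74, SE 0.123, limma adjusted p = 1.07e-05). Both had every LPS value below every control value, as for 61.4% of all tested genes. H1f10 was low throughout and reached 1 TPM only in control libraries, so its lower value after LPS follows from the filter.

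The order of the variants by level differed between groups. In LPS libraries it ran H3f3a, H3f3b, then H2az1 with Macroh2a1, then H1f0 with H2ax, then H2az2 and H1f10, where genes joined by "with" had overlapping ranges. In control libraries it ran H3f3a with H2az1, then H3f3b, H2ax, Macroh2a1, then H2az2, H1f0 and H1f10. Thus H2az1 stood beside H3f3a in control cells and beside Macroh2a1 in LPS-treated cells. The remaining 4 variants, Macroh2a2 and the annotated pseudogenes H3f3c, H3f4 and Macroh2a3, were not tested and reached at most 1.32 TPM in a library. That value was H3f3c in LPS library 3, and 73.8% of the 50-base stretches of H3f3c occur in other genes' transcripts.

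**Figure D2:**
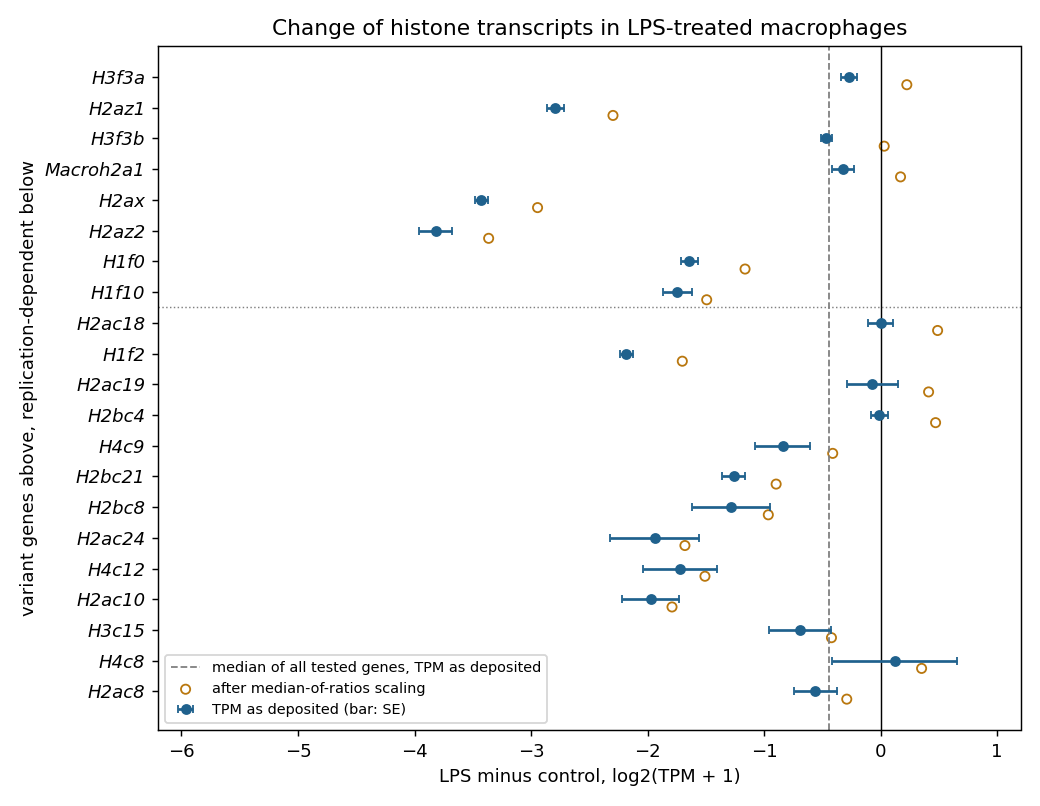
Change (LPS minus control) on the log2(TPM + 1) scale for the 21 tested histone genes, as deposited (filled, bar 1 SE) and after median-of-ratios scaling (open), variants above the dotted line. The dashed line marks the median of all tested genes, −0.44, and the open points of H3f3a, H3f3b, Macroh2a1, H2ac18, H2ac19, H2bc4 and H4c8 lie above 0.

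Among the replication-dependent genes the most abundant ones divided into H2ac18, H2ac19 and H2bc4, which did not pass the test, and H1f2, which fell. H2ac18 and H2ac19 encode the same H2A protein and lie in divergent orientation on chromosome 3 (GRCm38 chr3:96245497-96246082, plus strand, and chr3:96239749-96240276, minus strand). H2ac18 had 55.0, 45.1 and 50.9 TPM in LPS libraries and 47.5, 58.0 and 45.7 TPM in control libraries. H2ac19 had 29.7, 44.5 and 22.9 TPM in LPS libraries and 31.7, 30.5 and 36.6 TPM in control libraries. The groups overlapped for both, with a log2 change of 0.00 (SE 0.109, limma adjusted p = 0.994) for H2ac18 and −0.07 (SE 0.217, limma adjusted p = 0.778) for H2ac19. All of their 50-base stretches are shared, so only the sum of the pair can be read with care. It was 84.7, 89.6 and 73.8 TPM in LPS libraries and 79.2, 88.6 and 82.3 TPM in control libraries. After median-of-ratios scaling H2ac18 was called higher, with a change of 0.49 (adjusted p = 0.0041), and H2ac19 was not called (0.41, adjusted p = 0.162).

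H2bc4 encodes an H2B of the cluster on chromosome 13, and its annotated model has 2 exons and no hairpin (GRCm38 chr13:23684199-23692908, plus strand). It had 31.6, 32.2 and 31.3 TPM in LPS libraries and 32.2, 34.8 and 29.1 TPM in control libraries. The LPS values lay inside the control range, with a log2 change of −0.01 (SE 0.073, limma adjusted p = 0.897) that became 0.47 under median-of-ratios scaling and was then called higher (adjusted p = 0.000565). As a share of all H2B family TPM, H2bc4 made up 88.5% ± 3.27 in LPS libraries and 71.1% ± 4.05 in control libraries (SD, n = 3 each).

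H1f2 encodes H1.2, the replication-dependent linker histone with the highest level here. It had 15.6, 15.7 and 15.5 TPM in LPS libraries and 69.8, 76.2 and 77.0 TPM in control libraries. The level was 4.77-fold lower after LPS (log2 change −2.18, SE 0.058, limma adjusted p = 8.58e-08) and was lower again after median-of-ratios scaling, with a change of −1.70. Its model runs 840 bases past the hairpin and ends with a poly(A) signal. The ratio of H1f2 to the replacement gene H1f0 averaged 0.979 ± 0.0684 in LPS libraries and 1.43 ± 0.0343 in control libraries (SD, n = 3 each).

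All other tested replication-dependent genes were low. H2bc21, an H2B gene on chromosome 3 with a single long exon, had 1.62, 1.73 and 1.43 TPM in LPS libraries and 5.26, 5.37 and 5.01 TPM in control libraries (log2 change −1.26, SE 0.1001, limma adjusted p = 1.99e-05). H4c9 had 4.11, 6.58 and 3.88 TPM in LPS libraries and 12.1, 6.84 and 9.62 TPM in control libraries (log2 change −0.84, SE 0.234, limma adjusted p = 0.0129), a call that the median-of-ratios scaling ended (adjusted p = 0.183). The H4c9 groups came close together at LPS library 2 and control library 2, while the H2bc21 groups stood well apart. H2bc8 had 0.81, 1.85 and 0.51 TPM in LPS libraries and 5.40, 4.74 and 2.06 TPM in control libraries (log2 change −1.28, SE 0.338, limma adjusted p = 0.0101). H2ac24 was listed at 0, 1.64 and 0 TPM in LPS libraries and had 3.53, 5.34 and 4.18 TPM in control libraries, and H2ac10 was listed at 0 in every LPS library and had 3.10, 1.72 and 4.41 TPM in control libraries. Both were called lower, but an exact 0 in a table without counts can be a failed estimate, and 93.1% of the 50-base stretches of H2ac24 and 94.0% of those of H2ac10 are shared with other genes.

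H4c12, H3c15 and H2ac8 were also called lower at 0 to 1.11 TPM in LPS libraries and 1.14 to 4.37 TPM in control libraries. For these genes, as for H2bc8, H2ac24 and H2ac10, the filter favours or fixes a lower value after LPS. The calls of H3c15 (adjusted p = 0.0469) and H2ac8 (adjusted p = 0.0255) were lost under several other settings. H4c8 had 1.26, 2.80 and 0.25 TPM in LPS libraries and 2.23, 0 and 1.59 TPM in control libraries, with overlapping groups and no call. The next genes by mean level, H2ac7 and H4c11, were not tested. H2ac7 was listed at 0 in every LPS library and had 0.30, 1.92 and 3.39 TPM in control libraries, and H4c11 had 0 to 0.43 TPM in LPS libraries and 0.77 to 2.06 TPM in control libraries.

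Of the 62 members that were not tested, the highest single value was 3.39 TPM and the highest mean 0.935 TPM. There were 11 listed at 0 in all 6 libraries, among them the 6 germ cell genes H1f6, H1f7, H1f8, H1f9, H2ac1 and H2bc1. Among replication-dependent genes, 17 were listed at 0 in the LPS libraries alone and 2 in the control libraries alone. The matching share of all genes was not counted, so these numbers are no result about histones. LPS libraries held 11590 to 11643 genes at 1 TPM or more and control libraries 12376 to 12433. Some of the 17 rest on 1 control library, such as H2bc13 at 1.94 TPM and H2ac12 at 0.82 TPM. Of their 64 models, 59 have 1 exon, and 52 lie on chromosome 13 and 10 on chromosome 3. Over these 64, the median share of 50-base stretches found in other transcripts was 57.5%, and it was at least 50% in 35, so values of single cluster genes are uncertain.

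The make-up of each histone family was compared within libraries, since shares and ratios do not depend on the scaling of the library. Replication-dependent genes made up 9.44% ± 0.719 of all histone TPM in LPS libraries and 8.13% ± 0.572 in control libraries (SD, n = 3 each), with overlapping ranges of 8.68% to 10.1% in LPS libraries and 7.78% to 8.79% in control libraries. Without H2ac18 the share was 6.39% in LPS libraries and 6.54% in control libraries. Without both H2ac18 and H2ac19, whose reads cannot be told apart, it was 4.32% ± 0.305 in LPS libraries and 5.49% ± 0.275 in control libraries, with ranges that did not overlap (an alternative chosen after seeing the data). The order of the groups therefore turned with that pair. The H3 family, almost wholly H3.3, took 72.4% ± 0.716 of histone TPM in LPS libraries and 47.6% ± 1.30 in control libraries. The H2A family took 22.7% ± 0.503 in LPS libraries and 45.95% ± 1.14 in control libraries. H1 took 2.07% in LPS libraries and 4.38% in control libraries. H2B took 2.32% in LPS libraries and 1.52% in control libraries. H4 took 0.520% in LPS libraries and 0.547% in control libraries. Replication-dependent H3 genes were 0.138% of H3 family TPM in LPS libraries and 0.559% in control libraries.

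Within the H2A family the composition differed most. H2az1 was 35.7% ± 1.84 of H2A family TPM in LPS libraries and 63.5% ± 1.87 in control libraries. Macroh2a1 was 34.3% ± 4.57 in LPS libraries and 10.9% ± 0.458 in control libraries (n = 3 each, SD). The H2ac18 and H2ac19 pair was 23.6% ± 2.16 in LPS libraries and 6.09% ± 0.638 in control libraries. H2ax was 4.26% ± 0.307 in LPS libraries and 12.4% ± 1.001 in control libraries, and H2az2 was 1.41% in LPS libraries and 5.96% in control libraries. For each of these 5 parts the LPS and control ranges were apart, as for 78.6% of all tested genes in TPM in either direction. The smallest p that an exact two-sided permutation test of 3 against 3 libraries can reach is 0.1, so shares are given with their spread and no test. Macroh2a1 and the H2ac18 and H2ac19 pair held larger shares in LPS libraries although neither was called higher on TPM as deposited.

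**Figure D3:**
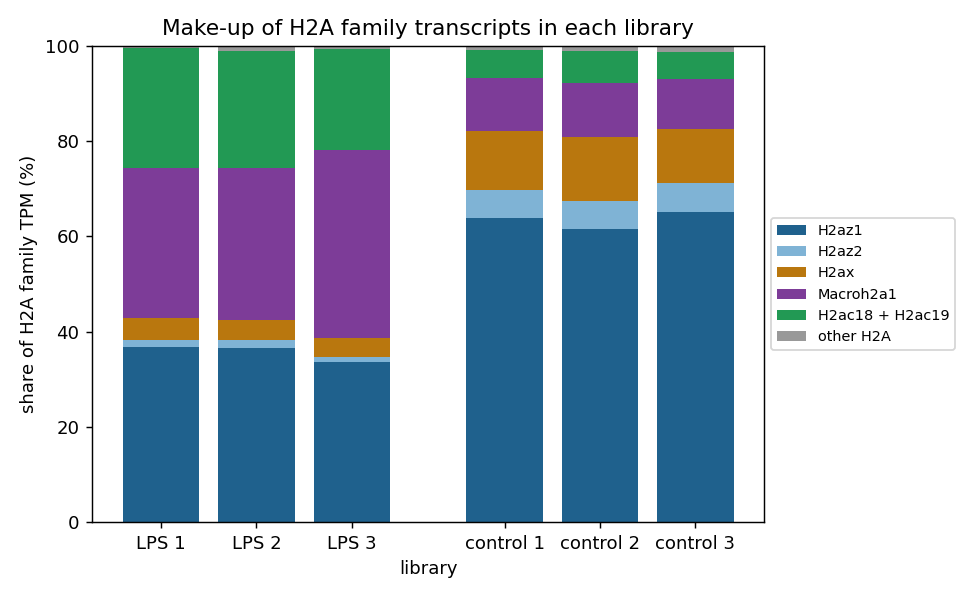
Share of H2A family TPM held by each member or pair in each of the 6 libraries, LPS libraries left of control libraries. H2az1 is the largest part in each control library, at 61.5% to 65.2%, and 33.6% to 36.9% in LPS libraries, where Macroh2a1 and the H2ac18 and H2ac19 pair fill most of the rest.

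Ratios between members put the same values side by side. H2az1 was 0.344, 0.347 and 0.314 times the level of H3f3b in LPS libraries and 1.66, 1.63 and 1.78 times in control libraries. H2ax was 0.283, 0.338 and 0.274 times the level of H2ac18 in LPS libraries and 3.595, 2.999 and 3.62 times in control libraries. H2ax thus lay below H2ac18 in every LPS library and above it in every control library, although both models carry a hairpin. The split of reads between H2ac18 and H2ac19 is uncertain, so these ratios are too. Against the sum of that pair, H2ax also lay below in every LPS library and above in every control library.

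Levels were set beside the ends of the annotated models, which the choice of members did not use. Over replication-dependent genes the median of mean TPM was 0.22 for 21 models without a hairpin, 0.268 for 21 with a hairpin and at least 100 bases after it, and 0.294 for 22 with a shorter end. A poly(A) signal (AATAAA or ATTAAA in the last 50 bases) was present in 15 of the 64 models, against 72.3% of other protein-coding genes, and the medians with and without it were 0.282 and 0.242 TPM. These medians lie close together and near the median of all 64, 0.255 TPM, but they are set by the many genes of low level. A mean of 1 TPM or more was reached by 5 of 15 models with a poly(A) signal and 8 of 49 without one. By model end it was reached by 4 of 21 without a hairpin, 5 of 21 with a longer end and 4 of 22 with a shorter end. No relation of level to model end was tested. The few genes with high levels had ends of different kinds. H1f2 runs on for 840 bases and H4c9 for 330 after the hairpin, while the models of H2ac18 and H2ac19 stop 35 bases after it.

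**Figure D4:**
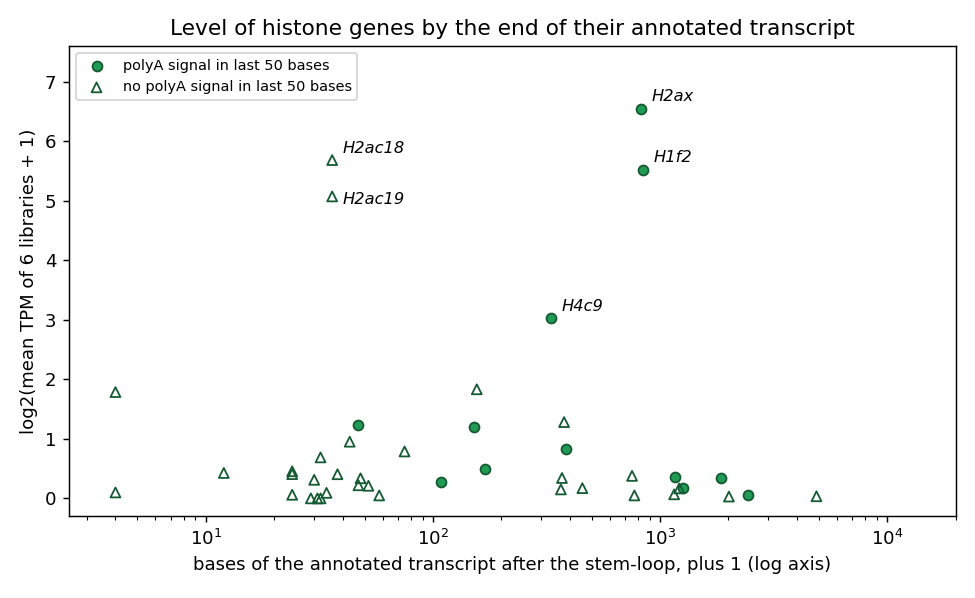
Mean level over 6 libraries, as log2(mean TPM + 1), against the number of annotated bases after the stem-loop plus 1 (log axis), for the members with a stem-loop, filled where a poly(A) signal lies in the last 50 bases. H2ax, H1f2 and H4c9 sit at the upper right with a signal, H2ac18 and H2ac19 at the upper left without one, and most other genes lie below 1 TPM at every length.

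Genes that make, carry and use histones were counted from 4 lists, chosen by function. Of 15 tested genes for the processing of histone mRNA, 8 were lower after LPS and 7 were not called (median change −0.49). This share is below the 59.8% of all tested genes that were lower, and the median lies close to theirs of −0.44. After median-of-ratios scaling 5 were lower and 5 higher, where 33.6% of all tested genes were lower and 33.5% higher. Slbp, whose product binds the hairpin, averaged 28.8 ± 1.05 TPM in LPS libraries and 85.2 ± 2.36 TPM in control libraries (log2 change −1.53, limma adjusted p = 2.55e-07). Npat, the coactivator that assembles at histone clusters when S phase begins, averaged 2.89 ± 0.211 TPM in LPS libraries and 7.64 ± 0.661 TPM in control libraries (log2 change −1.15, limma adjusted p = 3.43e-05). Both were lower, as was Srrt, which links the RNA cap to 3′ processing, at 109 ± 6.64 TPM in LPS libraries and 201 ± 3.75 TPM in control libraries. Sympk, a scaffold of the cleavage machinery, and Tut7, which uridylates histone mRNA before decay, were not called as deposited. They differed little in level, Sympk at 74.0 TPM in LPS libraries and 77.6 TPM in control libraries, Tut7 at 75.6 TPM in LPS libraries and 69.5 TPM in control libraries, and both were called higher after median-of-ratios scaling.

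Of 30 tested histone chaperones and exchange factors, 21 were lower, 4 higher and 5 not called (median change −0.90), where 76.1% of all tested genes were called and 59.8% were lower. After median-of-ratios scaling 17 were lower and 8 higher, against 33.6% lower and 33.5% higher of all tested genes. The most abundant were Npm1, a nucleolar chaperone of H2A and H2B, at 228 ± 6.55 TPM in LPS libraries and 459 ± 23.5 TPM in control libraries, and Nap1l1, which shuttles H2A with H2B, at 70.5 TPM in LPS libraries and 363 TPM in control libraries. Dek, an H3.3 chaperone, averaged 49.1 TPM in LPS libraries and 162 TPM in control libraries. These 3 were lower, while Set, which binds histone tails, had 108 TPM in LPS libraries and 95.0 TPM in control libraries with no call as deposited (limma adjusted p = 0.0514). Singled out after their values were seen, Anp32e, which removes H2A.Z from chromatin, averaged 19.4 TPM in LPS libraries and 88.9 TPM in control libraries. Daxx, which deposits H3.3, averaged 89.7 TPM in LPS libraries and 35.02 TPM in control libraries and was called higher (log2 change 1.33), against 16.3% of all tested genes called higher. Asf1b, the H3 and H4 chaperone of dividing cells, averaged 5.81 TPM in LPS libraries and 149 TPM in control libraries.

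All 30 tested genes of DNA replication were lower, with a median change of −2.52, against 59.8% of all tested genes. All 30 were lower again after median-of-ratios scaling, against 33.6% of all tested genes. Pcna, the sliding clamp, had 108, 113 and 109 TPM in LPS libraries and 646, 676 and 605 TPM in control libraries (log2 change −2.53). Tk1, which salvages thymidine, averaged 13.3 TPM in LPS libraries and 205 TPM in control libraries, and Mcm6, part of the replicative helicase, averaged 24.0 TPM in LPS libraries and 141 TPM in control libraries. Rrm2, the S-phase subunit of ribonucleotide reductase, averaged 1.54 TPM in LPS libraries and 166 TPM in control libraries (log2 change −6.05). The changes of H2az1, H2ax and H2az2 lay in the range of this list, whereas those of H2ac18, H2ac19, H2bc4 and the H3.3 genes lay above every gene in it.

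Of 20 tested regulators of S-phase entry, 18 were lower and 2 higher (median change −1.70), where 59.8% of all tested genes were lower and 16.3% higher. After median-of-ratios scaling 15 were lower and 3 higher, against 33.6% lower and 33.5% higher of all tested genes. Ccnd3, which encodes cyclin D3, was higher, at 146 TPM in LPS libraries and 79.9 TPM in control libraries. Its partner gene Cdk4 averaged 59.1 TPM in LPS libraries and 115 TPM in control libraries, and the CDK inhibitor gene Cdkn2c 3.50 TPM in LPS libraries and 135 TPM in control libraries, both lower. Cdkn1a, which encodes the CDK inhibitor p21, was lower as deposited (88.2 TPM in LPS libraries and 125 TPM in control libraries, log2 change −0.50) and not called after median-of-ratios scaling.

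Cenpa, which encodes the centromeric H3 variant, lies outside the symbol rule. It had 0.48, 0.75 and 1.29 TPM in LPS libraries and 125, 117 and 123 TPM in control libraries (log2 change −6.08, SE 0.153, limma adjusted p = 6.74e-08). Its level in control cells lay between those of Macroh2a1 and H2az2 there, and in LPS-treated cells it was far below every tested variant but H1f10. Hjurp, its chaperone, singled out after its values were seen, had 12.3, 11.2 and 11.5 TPM in LPS libraries and 83.3, 93.8 and 79.3 TPM in control libraries.

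**Figure D5:**
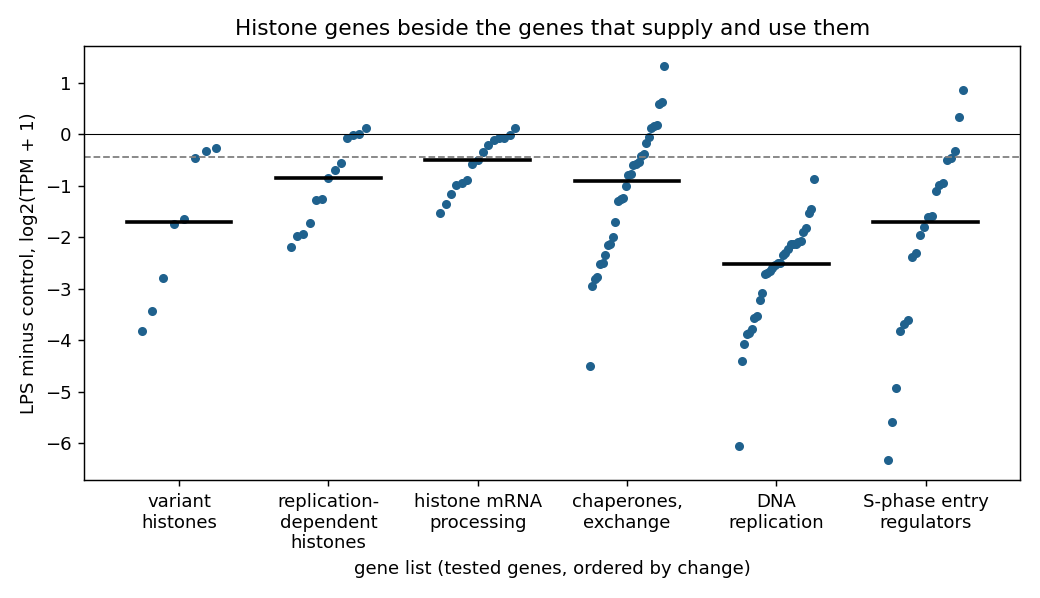
Change (LPS minus control, log2(TPM + 1)) of every tested gene in the histone classes and the 4 lists, with the median as a bar and the median of all tested genes, −0.44, as a dashed line. The medians are −1.69 for variants, −0.84 for replication-dependent genes, −0.49 for mRNA processing, −0.90 for chaperones, −2.52 for DNA replication and −1.70 for S-phase entry. The histone medians include genes that passed the filter only or mainly through control libraries, which favours lower values.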

How the data were processed

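Gene expression in 6 macrophage libraries was read from one table of TPM values that the authors deposited, with 2 decimals and each gene's length. Per the submitters' processing notes, Bowtie 0.12.2 and the builds mm8 and mm9 were named with no role. No source used here gives the counting tool, annotation, strand use or library selection. TPM keep no read depth, which leaves counting error and detection limits unknown. The test was limma 3.58.1 in R 4.3.3 (lmFit, eBayes with trend) on log2(TPM + 1), LPS minus control and two-sided. It covered the 12440 genes that reached 1 TPM in 3 or more of 6 libraries. P-values were adjusted over all of these (Benjamini-Hochberg, limit 0.05). This scale understates the change of low genes. The fit was tested on simulated data in which few genes changed, in both directions and without a shared shift. In the real data 76.1% of tested genes were called, so the outcome of that simulation does not carry over.

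The members, the gene lists and the classes were chosen with earlier results of these data known. The genes named were each tested variant, the 15 replication-dependent genes with the highest mean TPM, the 4 highest of each list, Slbp, Npat and Cenpa, together with others said to be singled out. Coordinates and models come from GENCODE M21 (GRCm38), matched by Ensembl identifier for all 83 members, of which 82 had the deposited length. Promoters come from RefSeq (GRCm38.p6). Python 3.11.15 and pandas 2.3.3 were used for the rest. Alternatives were another pseudocount, no filter, median-of-ratios scaling, quantile normalization, removal of Saa3 and Fth1, a replicate block and leaving out each library.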

Additional observations from a re-analysis of the deposited data

How the results depend on the processing

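The count of variants called in either direction was 8 of 8 tested on TPM as deposited and 6 to 8 under the alternatives. That of replication-dependent genes was 9 of 13 tested, where 76.1% of all tested genes were called, and 7 to 13 under the alternatives. The highest count, with no filter on low values, was 13 of 59 tested, where 9970 of 23958 genes were called. Leaving out 1 library at a time gave 8 to 8 variants, 7 to 8 replication-dependent genes, 82 to 84 genes of the 4 lists and 8959 to 9235 of all tested genes called. The directions within these counts moved with the scaling. After quantile normalization 6 variants were lower, and 2 replication-dependent genes were higher and 5 lower. Of all 12440 tested genes, 4029 were then higher and 4257 lower. Signs turned for H3f3a (0.22), H3f3b (0.0303) and Macroh2a1 (0.17) after median-of-ratios scaling. They also turned for H2bc4 and Sympk after median-of-ratios scaling (0.47 and 0.42), quantile normalization (0.40 and 0.16) and removal of Saa3 and Fth1 (0.23 and 0.18). H2ac19 turned under the same 3 settings (0.41, 0.34 and 0.17), without LPS library 3 (0.14) and without control library 3 (0.0045), with no call in any of them. H2ac18, at 0.001, and H2bc4, at −0.01, had either sign when 1 library was left out, with no call. The cause was not tested. The replication-dependent share of histone TPM was 6.39% in LPS libraries and 6.54% in control libraries without H2ac18. Without H2ac18 and H2ac19, an alternative chosen after seeing the data, it was 4.32% in LPS libraries and 5.49% in control libraries. It was 9.11% to 9.82% in LPS libraries and 7.80% to 8.31% in control libraries when 1 library was left out. With H2aj and H2aw added, also chosen after seeing the data, it was 9.61% in LPS libraries and 8.32% in control libraries. Whether replicate numbers pair the libraries is not stated by the labels. Same-numbered libraries deviated together with correlations of 0.07, −0.15 and 0.08, and differently numbered ones with −0.19 to 0.12. With deviations taken from means of 3 libraries, these values cannot settle whether libraries were paired. A replicate block called 8 variants, 8 replication-dependent genes and 9297 of all tested genes, and the call of H2ac8 was lost (adjusted p = 0.0594). Depth is unknown, which limits what can be said of the low cluster genes.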

Other observations

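H2A genes H2aj and H2aw, whose symbols fall outside the rule, were singled out after their values were seen. H2aj, a replication-independent H2A, had 65.8, 60.3 and 62.8 TPM in LPS libraries and 102, 77.5 and 100.5 TPM in control libraries, and its change of −0.55 (limma adjusted p = 0.00243) was −0.06 with no call after median-of-ratios scaling. H2aw had 9.25, 10.3 and 9.06 TPM in LPS libraries and 15.4, 14.9 and 13.4 TPM in control libraries. With both genes added to the H2A family, H2az1 made up 29.6% of it in LPS libraries and 58.9% in control libraries.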
